A study of Mus musculus with 12 samples.

Results

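The 45 genes described here make the proteins that copy the genome in S phase, supply its building blocks, decide on entry into S phase, and divide the chromosomes in mitosis. They were taken by exact name from a table of 13935 rows of RNA sequencing in mouse bone marrow neutrophils; all 45 were present, and all 45 passed the filter on low values that left 13915 rows tested. By role, 11 belong to origin licensing and the replicative helicase, 8 to the replication fork, 5 to nucleotide supply, 6 to control of the G1 to S transition, and 15 to S/G2 cyclins, the spindle and mitosis.

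The cells were sorted from femoral marrow as CD45+ CD11b+ Ly6G+ neutrophils and kept in culture for 8 h. Granulocyte colony-stimulating factor (G-CSF, 10 ng/ml) was added to some cultures; it signals through STAT3 and drives the making of neutrophils. The 4 groups of 3 libraries were LysMcre Socs3fl/fl cells with G-CSF, Socs3fl/fl cells with G-CSF, LysMcre Socs3fl/fl cells untreated and Socs3fl/fl cells untreated, so that every group carries the loxP-flanked Socs3 allele. The cells with the Cre recombinase expressed from the lysozyme 2 locus in myeloid cells are called LysMcre-labelled here, and the cells without it floxed. The Socs3 protein restrains STAT3 signalling downstream of the G-CSF receptor. The labels give no age, and none says that libraries came from different animals or whether cells were pooled. The p-values here therefore reflect spread among libraries alone, and that spread may be technical.

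In a dividing cell, the Mcm2 to Mcm7 helicase is loaded onto replication origins in G1 by the licensing factors Cdc6 and Cdt1, while geminin, the product of Gmnn, blocks Cdt1 afterwards. E2F factors, freed from the retinoblastoma protein by cyclin E with Cdk2, drive the genes of S phase, and the mitotic genes follow later under other factors that bind CHR and CCAAT elements. In marrow, granulocyte precursors divide up to the myelocyte stage, and mature neutrophils have left the cell cycle.

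Recovered reads came to 19495754 to 26472118 per library, 3 reads were worth 2.57 to 3.54 normalized counts, and the lowest count of any of the 45 genes in a library was 33 reads, for Fen1. Socs3 was not lower in libraries labelled LysMcre. Under G-CSF it stood at 37335 ± 1219 normalized counts in LysMcre-labelled libraries and 19504 ± 1635 in floxed libraries (SD, n = 3 each), and untreated at 292 ± 34.5 in LysMcre-labelled and 225 ± 23.1 in floxed libraries (SD, n = 3 each). Counts over a whole gene do not show whether its transcripts still hold the loxP-flanked stretch, so the deletion was neither shown nor excluded. Lyz2, whose locus carries the Cre, was at 507 to 6602 normalized counts in the 6 LysMcre-labelled libraries and at 44425 to 226031 in the 6 floxed libraries. All 10 neutrophil markers read here had counts in every library, led by S100a9 and S100a8. Normalized counts are the deposited values, in which the reads of a gene were scaled by a factor common to its library.

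Promoters of 6 genes are shown so that the motif words of licensing and mitotic genes can be set side by side. Windows of 250 bases before to 50 bases after the transcription start were given for 37 of the 45 genes (RefSeq, GRCm38.p6); Mcm4, Gmnn, Gins2, Pole, Ccne2, Ccna2, Aurkb and Tpx2 had none. Capitals mark E2F words (TTCCCGC or TTCGCGC or TTGGCGC or TTGCCGC), the CHR word TTTGAA and the CCAAT word, each on either strand; an E2F word read on the opposite strand as GCGCCAA can run into CCAAT. The lines below give 3 licensing genes and then 3 mitotic genes, each 5′ to 3′ on the strand of the gene.
Mcm5 (chr8:75109259-75109558, plus strand): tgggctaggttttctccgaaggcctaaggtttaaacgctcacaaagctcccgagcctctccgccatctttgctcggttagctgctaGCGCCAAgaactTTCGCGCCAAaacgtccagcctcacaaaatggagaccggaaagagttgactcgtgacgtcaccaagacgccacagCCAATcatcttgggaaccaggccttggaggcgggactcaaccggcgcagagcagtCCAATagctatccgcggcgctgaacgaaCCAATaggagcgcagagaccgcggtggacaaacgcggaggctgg
Mcm6 (chr1:128359656-128359955, minus strand): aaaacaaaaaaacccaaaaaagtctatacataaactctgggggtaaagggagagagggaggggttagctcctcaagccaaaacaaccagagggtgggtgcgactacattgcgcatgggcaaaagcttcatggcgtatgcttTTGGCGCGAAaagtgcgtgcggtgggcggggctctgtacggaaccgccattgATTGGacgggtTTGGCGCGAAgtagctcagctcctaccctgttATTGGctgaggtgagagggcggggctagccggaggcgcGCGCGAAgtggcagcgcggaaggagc
Cdc6 (chr11:98907901-98908200, plus strand): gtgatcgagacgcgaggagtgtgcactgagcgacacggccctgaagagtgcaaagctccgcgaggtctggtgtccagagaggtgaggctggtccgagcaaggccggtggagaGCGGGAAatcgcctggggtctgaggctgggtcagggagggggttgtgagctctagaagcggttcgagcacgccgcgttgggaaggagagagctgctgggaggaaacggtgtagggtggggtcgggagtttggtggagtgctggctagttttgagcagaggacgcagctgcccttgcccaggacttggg
Cdk1 (chr10:69352863-69353162, minus strand): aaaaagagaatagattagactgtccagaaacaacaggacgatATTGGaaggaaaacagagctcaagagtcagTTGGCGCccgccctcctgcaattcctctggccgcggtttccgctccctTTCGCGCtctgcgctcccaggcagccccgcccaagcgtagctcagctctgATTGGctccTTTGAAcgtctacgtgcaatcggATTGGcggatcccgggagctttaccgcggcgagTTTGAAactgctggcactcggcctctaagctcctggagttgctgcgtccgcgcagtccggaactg
Mki67 (chr7:135716330-135716629, minus strand): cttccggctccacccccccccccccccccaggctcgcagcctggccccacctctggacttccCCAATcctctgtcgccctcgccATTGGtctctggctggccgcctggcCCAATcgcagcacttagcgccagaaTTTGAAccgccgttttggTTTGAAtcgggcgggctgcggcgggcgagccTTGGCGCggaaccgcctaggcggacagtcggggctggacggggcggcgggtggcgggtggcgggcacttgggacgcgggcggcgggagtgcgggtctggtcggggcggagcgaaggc
Top2a (chr11:99024140-99024439, minus strand): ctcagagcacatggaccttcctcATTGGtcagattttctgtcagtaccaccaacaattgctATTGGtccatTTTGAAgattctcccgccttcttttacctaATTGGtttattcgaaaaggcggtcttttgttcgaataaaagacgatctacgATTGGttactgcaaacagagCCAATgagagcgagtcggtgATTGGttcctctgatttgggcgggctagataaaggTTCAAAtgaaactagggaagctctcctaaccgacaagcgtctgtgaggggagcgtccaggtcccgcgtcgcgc

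An E2F word was present in the windows of 6 of 8 licensing genes and 3 of 12 mitotic genes, beside 17.2% of 9538 tested genes and 9.57% of all 32851 windows. The CHR word was present in 2 of 8 licensing genes and 8 of 12 mitotic genes, beside 12.2% of tested genes and 17.9% of all windows. The 2 licensing genes with a CHR word, Mcm2 and Cdc45, held no E2F word and are not among the promoters shown. CCAAT was found in 6 of 8 licensing and 11 of 12 mitotic windows, beside 39.0% and 37.4%. Of the 45 genes' 37 windows, 17 held an E2F word, 11 a CHR word and 25 a CCAAT word. These are matches of letters and not sites of binding.

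With G-CSF most of these genes were higher in both genotypes, by small amounts. In LysMcre-labelled libraries 36 of 45 passed the test, 32 higher and 4 lower, with a median log2 difference of 0.51; among all tested genes 62.6% passed, 31.1% higher and 31.6% lower, with a median of 0.00. In floxed libraries 38 of 45 passed, 35 higher and 3 lower, with a median log2 difference of 0.43; among all tested genes 48.8% passed, 24.1% higher and 24.6% lower, with a median of 0.00. Each test was limma's on log2(normalized count + 1) with p-values adjusted by Benjamini and Hochberg's method across all 13915 genes tested; 0.05 was the threshold. In bulk RNA fewer cells of a type and less RNA per cell cannot be told apart. The libraries of the 2 conditions did not overlap for 39 of the 45 genes in LysMcre-labelled cells, beside 67.6% of all genes, and for 37 in floxed cells, beside 56.0%. 

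The size of the counts depended on how libraries were scaled. The deposited factors equalled median-of-ratios size factors, which hold the median of all genes near 0 by construction. When all libraries were instead brought to equal totals, the all-gene median shifted to -0.26 in LysMcre-labelled and -0.09 in floxed libraries, and the share of all called genes that was higher to 31.2% and 38.5%, against 49.6% and 49.5% with the deposited scaling. Under equal totals 21 of the 45 were called higher and 8 lower in LysMcre-labelled libraries, so that 72.4% of the calls were higher, against 88.9%, and in floxed libraries 27 higher and 4 lower. In LysMcre-labelled libraries the calls of Mcm6, Lig1, Fen1, Pole, Tyms, Plk1, Aurka, Birc5, Kif11, Mki67 and Tpx2 were lost, and Cdt1, Gmnn, Pold1 and Cdk2 were called lower. In floxed libraries the calls of Mcm6, Mcm7, E2f2, Ccnb2, Cdc20, Plk1, Birc5 and Kif11 were lost, and Gmnn was called lower. Relative to the median of all genes the 45 genes' median was 0.51 under either scaling in LysMcre-labelled libraries and 0.43 under either in floxed libraries. Equal totals multiplies each library by 1 factor and shifts every gene by nearly the same amount. This gap could therefore hardly change, and its agreement is no test of the scaling.

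**Figure D1:**
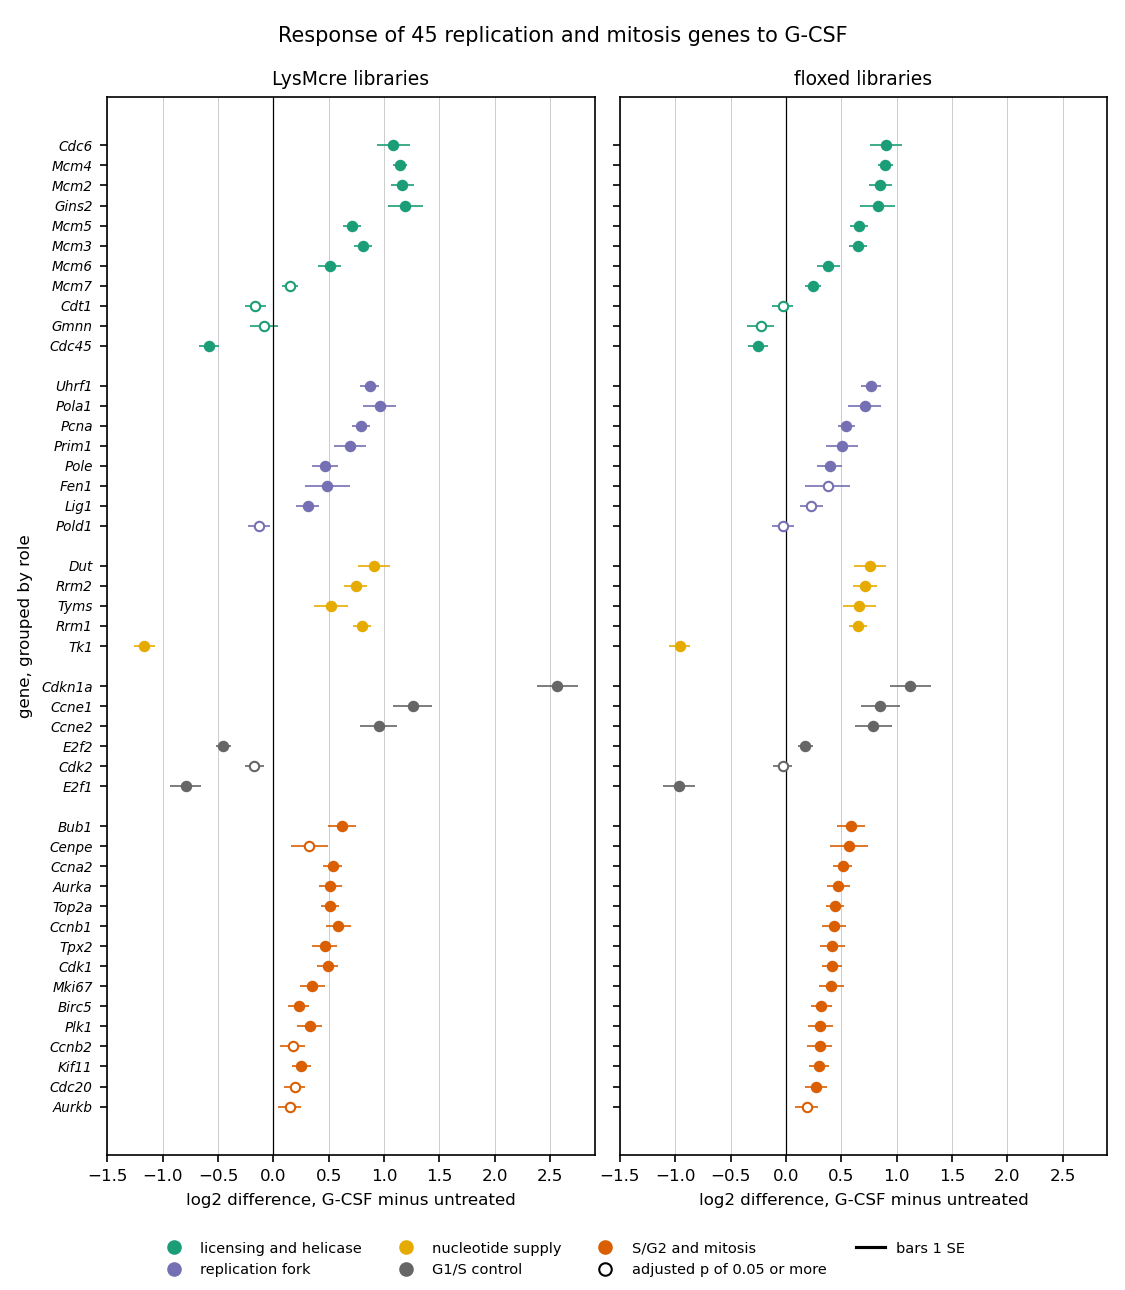
The log2 difference of G-CSF minus untreated is plotted for each of the 45 genes by role, LysMcre-labelled libraries on the left and floxed on the right; bars are 1 SE, and filled points passed an adjusted p of 0.05. The mitotic genes lie in a narrow band, 0.15 to 0.62 on the left and 0.19 to 0.59 on the right, and the other roles spread to both sides of 0.

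Both comparisons called 30 of the 45 genes higher and 3 lower, Cdc45, Tk1 and E2f1. Their differences rest on separate libraries, but their calls share 1 estimate of the spread from all 12 libraries and are not independent. Of the 45, only E2f2 was called in opposite directions. Among all tested genes 31.1% were called higher in LysMcre-labelled and 24.1% in floxed libraries, and 31.6% and 24.6% lower. The share of all genes called alike in both comparisons was not counted. Mcm7, Ccnb2, Cdc20 and Cenpe passed in floxed libraries and not in LysMcre-labelled ones, Lig1 and Fen1 the other way round, and Cdt1, Gmnn, Pold1, Cdk2 and Aurkb passed in neither. A test of the difference in response between the genotypes passed for Cdkn1a and E2f2 alone among the 45, and is given further on.

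In the licensing group 7 of 11 genes rose and 1 fell in LysMcre-labelled libraries, and 8 rose and 1 fell in floxed libraries. Called were 72.7% in LysMcre-labelled libraries, beside 62.6% of all genes, and 81.8% in floxed libraries, beside 48.8%. Under equal totals 6 rose and 3 fell in LysMcre-labelled and 6 rose and 2 fell in floxed libraries. Of the 6 helicase genes Mcm2 to Mcm7, 5 rose in LysMcre-labelled libraries with a median log2 difference of 0.76 and all 6 in floxed libraries with a median of 0.66; under equal totals 4 rose in each. Mcm2, a helicase subunit, had 621, 623 and 513 normalized counts in the LysMcre-labelled G-CSF libraries, against 246, 238 and 299 in the LysMcre-labelled untreated ones. Floxed libraries had 507, 524 and 558 with G-CSF, against 318, 290.4 and 271 untreated. Every G-CSF library was above every untreated library, and the difference was 1.16 (SE 0.10, limma adjusted p = 8.68e-08) in LysMcre-labelled and 0.85 (SE 0.10, limma adjusted p = 5.06e-06) in floxed cells on the log2 scale. Mcm4, another subunit, was at 1053, 1021 and 978 in LysMcre-labelled G-CSF against 441, 453 and 487 in LysMcre-labelled untreated libraries, a 2.21-fold rise (limma adjusted p = 4.17e-10). In floxed cells it had 963, 1001 and 993 with G-CSF against 548, 493 and 546 untreated, a 1.86-fold rise (limma adjusted p = 1.56e-08). The SD between the 3 libraries of a group was at most 37.6 normalized counts for Mcm4, far below the gap between conditions.

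Mcm3 and Mcm5 rose less. Mcm3 had 766, 741 and 690.3 normalized counts in LysMcre-labelled G-CSF libraries against 444, 376 and 434 in LysMcre-labelled untreated ones (log2 0.81, SE 0.08), and 617, 672 and 715 in floxed G-CSF libraries against 407, 443 and 421 in floxed untreated ones (log2 0.65, SE 0.08). Mcm5 had 884, 972 and 801 against 559, 494 and 565 in LysMcre-labelled libraries, G-CSF before untreated (log2 0.71, SE 0.08), and 834, 839.6 and 839.8 with G-CSF against 582, 512 and 503 untreated in floxed libraries (log2 0.66, SE 0.08). For both genes the conditions were separate in both genotypes. The promoter of Mcm5 shown above holds 3 E2F words, the pair nearest the start overlapping each other.

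The differences of Mcm6 and Mcm7 were the smallest of the 6. Mcm6 had 703, 724 and 665 normalized counts with G-CSF against 499.5, 468 and 500.4 untreated in LysMcre-labelled cells (log2 0.51, limma adjusted p = 0.000552), and 529.7, 734 and 656 with G-CSF against 431, 517 and 517 untreated in floxed cells (log2 0.38, limma adjusted p = 0.0067). Floxed G-CSF replicate 1, at 529.7, was only just above the highest floxed untreated library. Mcm7 had 821, 859 and 712 with G-CSF against 700.4, 689 and 759 untreated in LysMcre-labelled cells, which overlapped (log2 0.15, limma adjusted p = 0.0886), and it passed there without LysMcre-labelled G-CSF replicate 3 (log2 0.23, limma adjusted p = 0.01). In floxed cells it had 835, 824 and 900.1 with G-CSF against 735, 704 and 714 untreated (log2 0.25, limma adjusted p = 0.0112). That call was lost without floxed G-CSF replicate 3 (log2 0.21, limma adjusted p = 0.0527). Mcm7 overlaps Ap4m1 and Cops6 on the opposite strand and hosts the microRNAs Mir106b, Mir93 and Mir25, and its counts are uncertain where strand was not used.

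Of the loading factors, Cdc6 rose in both genotypes and Cdt1 passed in neither. Cdc6, the ATPase that brings the helicase to origins, had 191, 147 and 157 normalized counts with G-CSF against 69.4, 69.6 and 93.8 untreated in LysMcre-labelled libraries, a 2.12-fold rise (log2 1.08, SE 0.15, limma adjusted p = 1.1e-05). In floxed libraries it had 157, 152 and 163 with G-CSF against 93.8, 73.7 and 84.7 untreated, a 1.87-fold rise (log2 0.90, SE 0.15, limma adjusted p = 0.000109). All G-CSF libraries were above all untreated ones. Cdt1, its partner in helicase loading, had 289, 324 and 321 with G-CSF against 339.7, 336 and 370.5 untreated in LysMcre-labelled cells (log2 -0.16, limma adjusted p = 0.144), and 277, 311 and 337 with G-CSF against 344, 297 and 302 untreated in floxed cells (log2 -0.03, limma adjusted p = 0.822). Gmnn, which encodes the inhibitor of Cdt1, had 166, 153 and 142 with G-CSF against 156, 157 and 176 untreated in LysMcre-labelled cells (log2 -0.08), and 138, 176 and 139 with G-CSF against 168, 164 and 197 untreated in floxed cells (log2 -0.23). The conditions overlapped for Gmnn in both genotypes and for Cdt1 in floxed cells. Gmnn passed as lower in floxed cells without floxed G-CSF replicate 2 (log2 -0.34, limma adjusted p = 0.0404).

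The helicase's partners went both ways. Gins2, a subunit of the GINS complex that joins the helicase when origins fire, had 106, 86.1 and 77.3 normalized counts with G-CSF against 36.8, 37.0 and 41.8 untreated in LysMcre-labelled libraries (log2 1.19, limma adjusted p = 8.82e-06). The floxed libraries had 67.2, 73.5 and 78.1 with G-CSF against 38.4, 41.1 and 42.4 untreated (log2 0.83, limma adjusted p = 0.000469). The conditions were separate in both genotypes. Cdc45, the other partner that activates the helicase, had 364, 324 and 319 with G-CSF against 522, 512 and 473 untreated in LysMcre-labelled libraries and fell by 0.58 on the log2 scale (limma adjusted p = 4.27e-05). In floxed libraries it had 472, 411 and 376 with G-CSF against 487, 529 and 474 untreated and fell by 0.25 (limma adjusted p = 0.0337). The fall in floxed cells was lost without floxed untreated replicate 1 or 2 or floxed G-CSF replicate 2 or 3, where log2 was -0.26 to -0.17 and the limma adjusted p 0.0586 to 0.159. Cdc45 and Ufd1 overlap on opposite strands, and Gins2 overlaps Gse1.

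**Figure D2:**
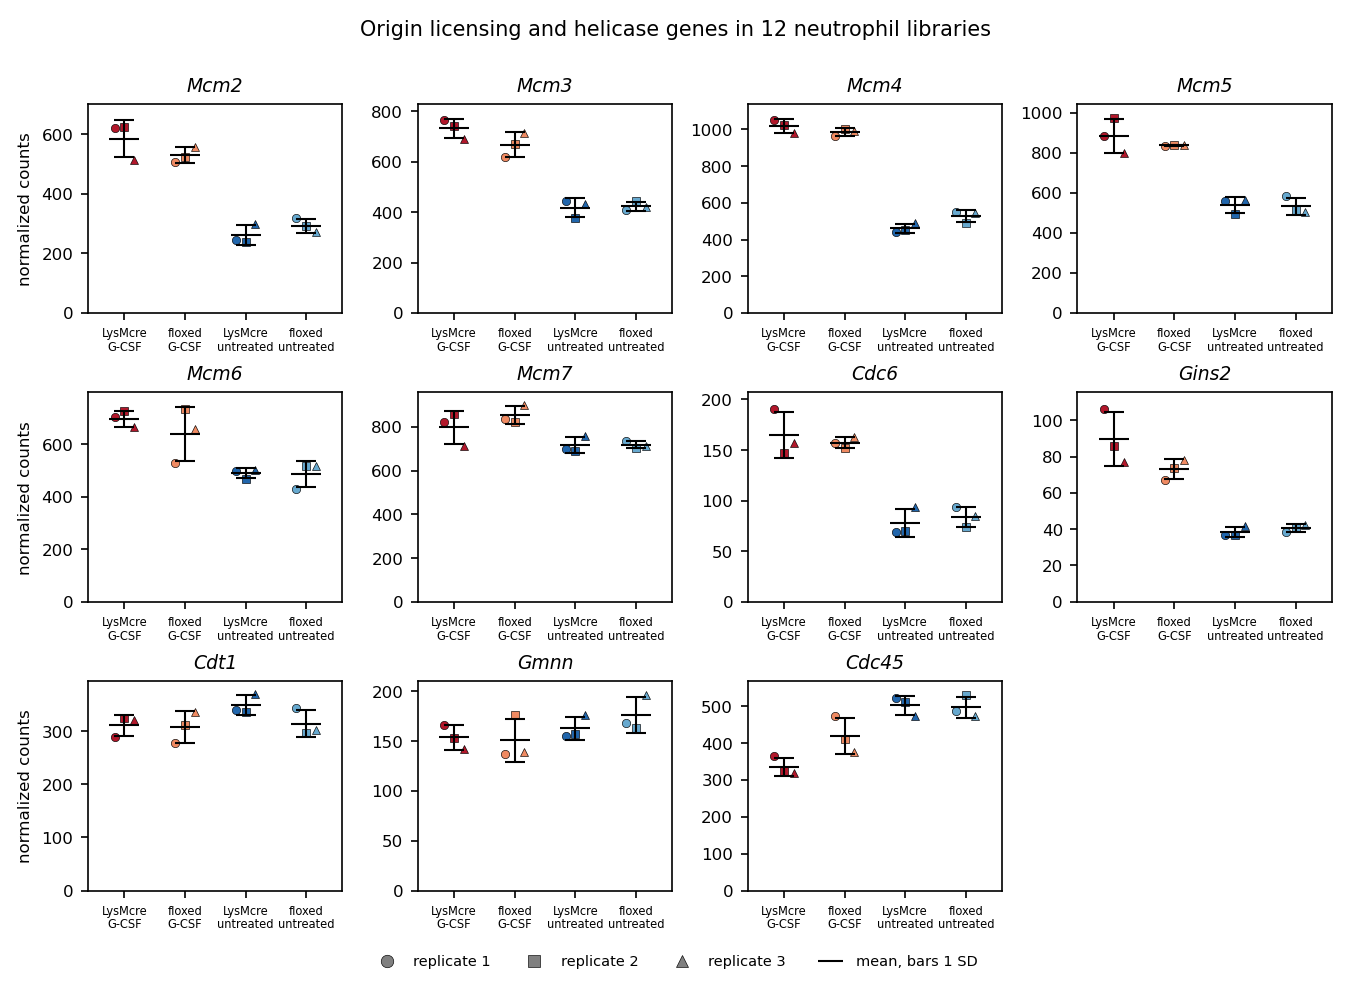
Normalized counts of the 11 licensing and helicase genes are plotted for each of the 12 libraries, G-CSF groups left of untreated and LysMcre-labelled left of floxed; the line is the mean and the bars are 1 SD. Mcm2, Mcm4, Cdc6 and Gins2 show G-CSF libraries above all untreated libraries, and Cdc45 shows the LysMcre-labelled G-CSF libraries lowest, at 319 to 364.

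At the replication fork 7 of 8 genes rose in LysMcre-labelled libraries and 5 of 8 in floxed libraries, and none fell. The medians were 0.59 in LysMcre-labelled and 0.45 in floxed libraries. Called were 87.5% in LysMcre-labelled libraries, beside 62.6% of all genes, and 62.5% in floxed libraries, beside 48.8%. Under equal totals 4 rose and 1 fell in LysMcre-labelled libraries and 5 rose in floxed libraries. Pcna, the sliding clamp that holds polymerases on DNA, had 1063, 1000.2 and 932 normalized counts with G-CSF against 577, 536 and 616 untreated in LysMcre-labelled cells (log2 0.79 with an SE 0.08, limma adjusted p = 3.46e-07). The floxed libraries had 789, 859 and 952 with G-CSF against 613, 572 and 588 untreated (log2 0.55, SE 0.08, limma adjusted p = 3.13e-05). The G-CSF libraries were all higher than the untreated ones. Uhrf1, which recruits the maintenance DNA methyltransferase behind the fork, rose by 0.87 and 0.77 on the log2 scale in LysMcre-labelled and floxed cells. Pola1, the catalytic subunit of the priming polymerase, averaged 171 ± 25.9 normalized counts with G-CSF and 87.3 ± 8.72 untreated in LysMcre-labelled cells, and 148 ± 22.7 with G-CSF and 89.4 ± 9.53 untreated in floxed cells (SD, n = 3 each). Prim1, the primase, rose 1.62-fold in LysMcre-labelled and 1.42-fold in floxed cells, and Pole, the leading-strand polymerase, 1.38-fold in LysMcre-labelled and 1.31-fold in floxed cells. The Pole call in floxed cells was lost without floxed untreated replicate 2 (log2 0.30, limma adjusted p = 0.0592).

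The fork genes Lig1, Fen1 and Pold1 passed in 1 genotype or in none when all libraries were fitted. Lig1, the DNA ligase that joins Okazaki fragments, had a log2 difference of 0.31 in LysMcre-labelled cells (limma adjusted p = 0.0187) and 0.23 in floxed cells (limma adjusted p = 0.0854). The call in LysMcre-labelled cells was lost without LysMcre-labelled untreated replicate 2 or LysMcre-labelled G-CSF replicate 3 (log2 0.22 to 0.27), and in floxed cells Lig1 passed without floxed untreated replicate 1 (log2 0.35, limma adjusted p = 0.0106). Fen1, the flap endonuclease, was at 58.7 ± 3.43 normalized counts with G-CSF and 42.4 ± 10.8 untreated in LysMcre-labelled cells (SD, n = 3 each), with a limma adjusted p of 0.0498 that was over the threshold in 16 of the 22 alternatives, 9 of which left out a library (log2 0.36 to 0.52, limma adjusted p 0.054 to 0.182). In floxed cells the difference of Fen1 was 0.38 (limma adjusted p = 0.142), and it passed without floxed untreated replicate 3 (log2 0.57, limma adjusted p = 0.0376). Pold1, catalytic subunit of the lagging-strand polymerase, had log2 differences of -0.13 in LysMcre-labelled and -0.02 in floxed cells and did not pass in either.

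In nucleotide supply 4 genes rose and Tk1 fell in both genotypes, with medians of 0.74 in LysMcre-labelled and 0.66 in floxed libraries. All 5 passed in each genotype, beside 62.6% of all genes in LysMcre-labelled and 48.8% in floxed libraries. Rrm1 and Rrm2, the subunits of ribonucleotide reductase, averaged 929.9 ± 53.1 and 898 ± 55.7 normalized counts with G-CSF against 534 ± 53.4 and 537 ± 30.9 untreated in LysMcre-labelled libraries (SD, n = 3 each). In floxed libraries they averaged 905 ± 49.0 and 968 ± 64.3 with G-CSF against 577 ± 34.9 and 595 ± 114 untreated (SD, n = 3 each). Dut, which removes dUTP, rose by 0.91 and 0.76 on the log2 scale, and Tyms, thymidylate synthase, by 0.52 and 0.66, in LysMcre-labelled and floxed cells. Tyms has the pseudogene Tyms-ps, whose reads may not be told apart from its own.

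Tk1, the thymidine kinase of the salvage path, had 252, 241 and 219 normalized counts with G-CSF against 531, 483 and 588 untreated in LysMcre-labelled libraries. Floxed libraries had 269.7, 273 and 311 with G-CSF against 583, 507 and 572 untreated. Every G-CSF library was far below every untreated one. The level was 2.24-fold lower in LysMcre-labelled cells (log2 -1.17, SE 0.09, limma adjusted p = 3.08e-08) and 1.94-fold lower in floxed cells (log2 -0.96, SE 0.09, limma adjusted p = 5.44e-07), and it was called lower in all 22 alternatives of each comparison. Tk1 overlaps Afmid on the opposite strand.

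Of the 6 genes of G1 to S control, 3 rose and 2 fell in LysMcre-labelled libraries and 4 rose and 1 fell in floxed libraries. Called were 83.3% in each genotype, beside 62.6% of all genes in LysMcre-labelled and 48.8% in floxed libraries. Under equal totals 3 rose and 3 fell in LysMcre-labelled and 3 rose and 1 fell in floxed libraries. Cdkn1a (mm10, chr17:29090976-29100727, plus strand), which had the largest difference of the 45 genes in both genotypes, encodes p21, an inhibitor of cyclin-dependent kinases and a target of p53. It had 1088, 1214 and 1004 normalized counts in the LysMcre-labelled G-CSF libraries, against 261, 161 and 150.4 in the LysMcre-labelled untreated libraries. Floxed G-CSF libraries had 303, 343 and 438, against 159, 195 and 140.2 in floxed untreated libraries. The LysMcre-labelled G-CSF libraries stood above all 9 others, and floxed G-CSF libraries above both untreated groups. The rise was 5.92-fold in LysMcre-labelled cells (log2 2.56, SE 0.19, limma adjusted p = 8.74e-09) and 2.18-fold in floxed cells (log2 1.13, SE 0.19, limma adjusted p = 0.000127).

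Both E-type cyclins, which activate Cdk2 before S phase, rose. Ccne1 had 105, 101 and 108 normalized counts with G-CSF against 44.2, 33.5 and 54.8 untreated in LysMcre-labelled libraries (log2 1.26, limma adjusted p = 1.39e-05). In floxed libraries it had 82.3, 81.4 and 103 with G-CSF against 45.8, 48.0 and 51.8 untreated (log2 0.85, limma adjusted p = 0.000836). All G-CSF libraries exceeded all untreated ones. Ccne2 rose by 0.95 in LysMcre-labelled and 0.79 in floxed cells on the log2 scale. Cdk2 itself had 1051, 1103 and 1086 with G-CSF against 1139, 1142 and 1386 untreated in LysMcre-labelled cells, and 1374, 1164 and 1286 with G-CSF against 1285, 1208 and 1411 untreated in floxed cells. The conditions overlapped in floxed cells, and neither difference passed (log2 -0.17 with a limma adjusted p = 0.0895 in LysMcre-labelled and log2 -0.03 with a limma adjusted p = 0.798 in floxed cells).

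The E2F activators differed from each other. E2f1 had 147, 137 and 129 normalized counts with G-CSF against 200.9, 249 and 271 untreated in LysMcre-labelled libraries, and fell by 0.79 on the log2 scale (SE 0.14, limma adjusted p = 0.000171). The floxed libraries had 151, 146 and 106 with G-CSF against 275, 272 and 236 untreated, and fell by 0.97 (SE 0.14, limma adjusted p = 3.94e-05). The highest G-CSF library, at 151, was below every untreated one. E2f2 (mm10, chr4:136172394-136196057, plus strand) had 4170.0, 4091 and 4136 with G-CSF against 5451, 5547 and 5976 untreated in LysMcre-labelled libraries, and fell by 0.45 (SE 0.07, limma adjusted p = 3.51e-05). Floxed libraries had 7436, 6250.4 and 6052 with G-CSF against 5769, 5596 and 6043 untreated (log2 0.18, SE 0.07, limma adjusted p = 0.0475). Floxed G-CSF replicate 1 stood well above the other floxed G-CSF libraries, and the lowest of the 3 was just above the highest floxed untreated one. The E2f2 call in floxed cells was lost in 12 of the 22 alternatives, 8 of which left out a library (log2 0.08 to 0.18, limma adjusted p 0.0517 to 0.233): floxed untreated replicate 1 or 2, LysMcre-labelled untreated replicate 1 or 2, floxed G-CSF replicate 1, or any LysMcre-labelled G-CSF replicate.

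Where strand was not used in counting, Cdkn1a may share reads with AC167363.2, Cdk2 with Pmel, Ccne2 with Ints8, Lig1 with Zswim9, Fen1 with Tmem258, Plk1 with Gm44985, Mki67 with Gm45240, Cdc20 with Elovl1 and Ccna2 with Exosc9, which overlap them on the opposite strand; E2f1, E2f2 and Cdc6 overlap no other annotated gene. Cdt1, Pola1, Pold1, Pole, Rrm1, Top2a, Kif11 and Tpx2 overlap genes that the annotation gives by a model or clone identifier or as a microRNA, and Pcna has the pseudogenes Pcna-ps1 and Pcna-ps2.

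**Figure D3:**
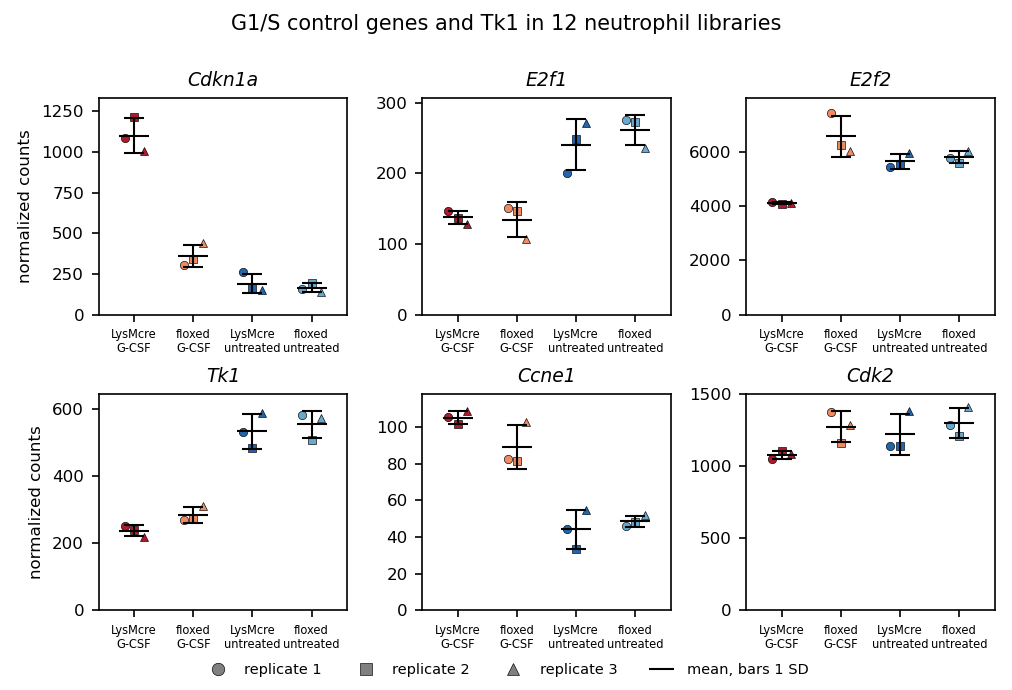
Normalized counts of 5 G1/S control genes and Tk1 are plotted for each of the 12 libraries, G-CSF groups left of untreated and LysMcre-labelled left of floxed; the line is the mean and the bars are 1 SD. Cdkn1a stands at 1004 to 1214 in LysMcre-labelled G-CSF libraries and at 303 to 438 in floxed G-CSF libraries, while E2f2 is lowest in LysMcre-labelled G-CSF libraries, at 4091 to 4170.

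Most mitotic genes rose by small amounts and none fell. In LysMcre-labelled libraries 11 of 15 passed (73.3%, beside 62.6% of all genes), with a median of 0.35 on the log2 scale and a range of 0.15 to 0.62. Under equal totals 5 of 15 passed there, and Birc5 and Kif11 turned to -0.03 and -0.01. In floxed libraries 14 of 15 passed (93.3%, beside 48.8% of all genes), with a median of 0.42 and a range of 0.19 to 0.59. Under equal totals 9 of 15 passed there. Without floxed untreated replicate 3, which had the lowest mitotic levels of its group, 9 of 15 passed in floxed libraries, with a median of 0.31.

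Mki67, the proliferation marker Ki-67 that coats mitotic chromosomes, had 5855, 5171 and 5407 normalized counts with G-CSF against 4642, 4152 and 4089 untreated in LysMcre-labelled cells (log2 0.35 with an SE 0.11, limma adjusted p = 0.0117). In floxed libraries it had 6158, 5335 and 5942 with G-CSF against 5218, 4536 and 3508 untreated (log2 0.41, SE 0.11, limma adjusted p = 0.00598). Within each genotype the conditions did not overlap, though floxed untreated replicate 1 came close to floxed G-CSF replicate 2. Top2a, the topoisomerase that untangles sister chromatids, had 3338, 3046 and 3145 with G-CSF against 2393, 2126 and 2164 untreated in LysMcre-labelled libraries (log2 0.51, limma adjusted p = 5.49e-05). The floxed libraries had 3195, 3022 and 3437 with G-CSF against 2727, 2210.1 and 2179 untreated (log2 0.45, limma adjusted p = 0.000316). Floxed untreated replicate 1 was again the highest of its group. The Mki67 call in LysMcre-labelled cells was also lost under quantile normalization (log2 0.16, limma adjusted p = 0.224).

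Cdk1, the kinase that starts mitosis, had 465, 451 and 437 normalized counts with G-CSF against 305, 328 and 329.6 untreated in LysMcre-labelled libraries (log2 0.49, limma adjusted p = 0.000224). Floxed libraries had 485, 490.3 and 459 with G-CSF against 419.9, 329.8 and 329 untreated (log2 0.42, limma adjusted p = 0.00123). Its conditions were separate in both genotypes. Ccnb1, its cyclin B1 partner, had 654, 578 and 535 with G-CSF against 426, 389 and 358 untreated in LysMcre-labelled libraries (log2 0.59, limma adjusted p = 0.000255). Floxed libraries had 555, 578 and 607 with G-CSF against 511, 419.7 and 368 untreated (log2 0.43, limma adjusted p = 0.00419). Here too every G-CSF library was above its untreated group. The files do not tell Ccnb1 and Ccnb2 from the pseudogenes Ccnb1-ps and Ccnb2-ps where reads fit both.

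The other mitotic genes are cyclin A2 (Ccna2), the checkpoint kinase Bub1, the spindle genes Aurka, Tpx2, Kif11 and Cenpe, and the genes Plk1, Birc5, Aurkb, Ccnb2 and Cdc20. Of the 15, Bub1 had the largest difference in LysMcre-labelled cells (log2 0.62) and in floxed cells (0.59), and Aurkb, a kinase of the chromosomal passenger complex, the smallest (0.15 LysMcre-labelled, 0.19 floxed), which did not pass. Without floxed untreated replicate 1 Aurkb passed in floxed cells (log2 0.28, limma adjusted p = 0.0459). In LysMcre-labelled cells Ccna2 was at 0.54, the spindle kinase Aurka at 0.52 and its activator Tpx2 at 0.46, and in floxed cells at 0.52, 0.47 and 0.42, all of which passed. Cenpe, a kinetochore motor, averaged 728 ± 97.6 normalized counts with G-CSF and 580.2 ± 72.8 untreated in LysMcre-labelled cells, and 771 ± 45.5 with G-CSF and 535 ± 155 untreated in floxed cells (SD, n = 3 each); it passed in floxed cells (log2 0.33 LysMcre-labelled, 0.57 floxed). In LysMcre-labelled cells it passed without floxed untreated replicate 3 (limma adjusted p = 0.0164) and when only the groups compared were fitted (limma adjusted p = 0.0241).

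The calls of Plk1, Ccnb2, Cdc20, Birc5 and Kif11 depended on single libraries. Plk1, a mitotic kinase, passed at 0.33 and 0.31 on the log2 scale in LysMcre-labelled and floxed cells. It lost the call in LysMcre-labelled cells without LysMcre-labelled untreated replicate 2 or 3 or LysMcre-labelled G-CSF replicate 1 (log2 0.25 to 0.30), and in floxed cells without floxed untreated replicate 2 or 3 or any floxed G-CSF replicate (log2 0.18 to 0.33). Ccnb2 and Cdc20, the activator of the anaphase-promoting complex, passed in floxed cells (log2 0.31 and 0.27) and not in LysMcre-labelled cells (log2 0.17 and 0.19). Ccnb2 lost its call without floxed untreated replicate 2 or 3 or floxed G-CSF replicate 1 or 3 (log2 0.20 to 0.32), and Cdc20 without floxed untreated replicate 3 or floxed G-CSF replicate 1 (log2 0.14 to 0.20). In LysMcre-labelled cells Cdc20 passed when only the groups compared were fitted (limma adjusted p = 0.0325) and without floxed untreated replicate 3 (limma adjusted p = 0.0379). Birc5, which encodes survivin, and the spindle motor Kif11 passed at 0.23 and 0.25 in LysMcre-labelled and at 0.32 and 0.30 in floxed cells. Both lost the floxed call without floxed untreated replicate 3 (log2 0.21 and 0.24). In LysMcre-labelled cells Birc5 lost its call in 9 of the 12 alternatives that left out a library (log2 0.19 to 0.26), and Kif11 without LysMcre-labelled untreated replicate 2 or LysMcre-labelled G-CSF replicate 1 (log2 0.18 to 0.20).

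**Figure D4:**
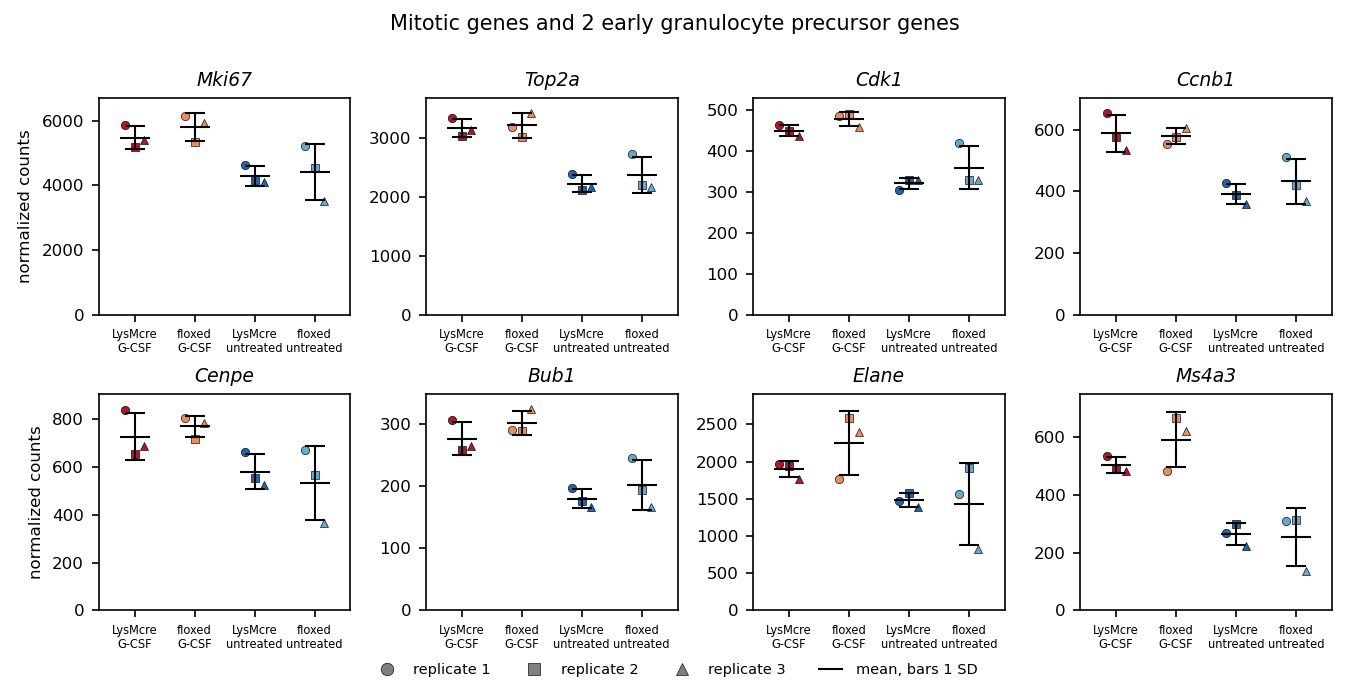
Normalized counts of 6 mitotic genes and of the early granulocyte precursor genes Elane and Ms4a3 are plotted for each of the 12 libraries, G-CSF groups left of untreated and LysMcre-labelled left of floxed; the line is the mean and the bars are 1 SD. Floxed untreated replicate 3 is lowest of all libraries for Mki67, at 3508, for Cenpe, at 366, for Elane, at 825, and for Ms4a3, at 137. Of the 8 such precursor markers read, Prss57, Cebpe and Gfi1 are not plotted and were lower with G-CSF in both genotypes.

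Markers of early granulocyte precursors, the dividing cells of the lineage, were read beside the mitotic genes. Of 8 such markers 75% passed in LysMcre-labelled and 87.5% in floxed cells, beside 62.6% and 48.8% of all genes. Prtn3, Ctsg and Ms4a3 rose with G-CSF in both genotypes (log2 0.97, 0.74 and 0.94 in LysMcre-labelled and 1.37, 1.02 and 1.30 in floxed cells). Under equal totals Ctsg did not pass in LysMcre-labelled cells. Elane rose in floxed cells (0.72), a call lost without floxed G-CSF replicate 2 (log2 0.61), and had 0.36 in LysMcre-labelled cells. Prss57, Cebpe and Gfi1 were lower with G-CSF in both (log2 -1.75, -3.39 and -1.99 in LysMcre-labelled and -0.51, -2.02 and -1.63 in floxed cells). Mpo passed in neither genotype. The summed level of the 8 was 10502 to 12253 normalized counts in LysMcre-labelled G-CSF, 12469 to 16518 in floxed G-CSF, 15332 to 16580 in LysMcre-labelled untreated and 12266 to 17870 in floxed untreated libraries. Floxed untreated replicate 3, low in mitotic genes, had 825 Elane and 137 Ms4a3 counts, against 1564 and 1911 Elane and 311 and 314 Ms4a3 counts in floxed untreated replicates 1 and 2. The part of such cells in the mitotic values was not tested.

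Set side by side, the licensing genes had the wider range of differences and the higher median. Licensing genes ranged from -0.58 to 1.19 on the log2 scale with a median of 0.71 in LysMcre-labelled cells, and from -0.25 to 0.90 with a median of 0.65 in floxed cells; mitotic genes ranged from 0.15 to 0.62 with a median of 0.35 in LysMcre-labelled cells, and from 0.19 to 0.59 with a median of 0.42 in floxed cells. Under equal totals the medians were 0.45 for licensing and 0.09 for mitotic genes in LysMcre-labelled cells, and 0.56 for licensing and 0.33 for mitotic genes in floxed cells. By library, the mean log2 level of the 11 licensing genes over its floxed untreated mean was 0.39 to 0.57 in LysMcre-labelled G-CSF, 0.38 to 0.48 in floxed G-CSF, -0.12 to 0.05 in LysMcre-labelled untreated and -0.03 to 0.02 in floxed untreated libraries. For the 15 mitotic genes the same measure was 0.24 to 0.44 in LysMcre-labelled G-CSF, 0.33 to 0.45 in floxed G-CSF, -0.14 to 0.04 in LysMcre-labelled untreated and -0.22 to 0.22 in floxed untreated libraries. The 3 floxed untreated libraries lay far apart in mitotic genes and close together in licensing genes. No test of licensing against mitotic genes was made.

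**Figure D5:**
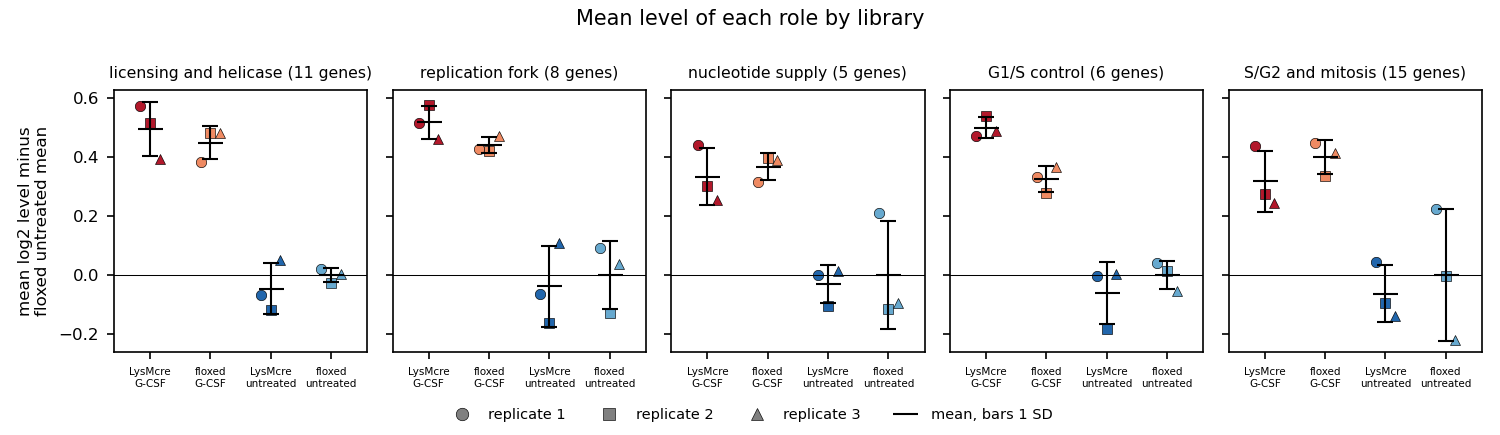
The mean log2 level of the genes of each role, minus its mean over the floxed untreated libraries, is plotted for each of the 12 libraries, G-CSF groups left of untreated and LysMcre-labelled left of floxed; the line is the mean and the bars are 1 SD. All 6 G-CSF libraries lie above all 6 untreated libraries in every role, and in mitotic genes floxed untreated replicates 1 and 3 lie at 0.22 and -0.22.

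The genotypes were then compared within each condition. With G-CSF, 5 of the 45 genes passed between LysMcre-labelled and floxed libraries, 1 higher and 4 lower, beside 36.0% of all genes (17.1% higher and 18.9% lower), and the median of the 45 was 0.01 on the log2 scale beside -0.01 for all genes. Equal totals moved the median of all genes to -0.13 and the share of called genes that was higher to 28.2%, against 47.5%, and called 1 of the 45 higher and 6 lower. Of the 45, edgeR called 2 higher and 2 lower. The libraries of the genotypes did not overlap for 7 of the 45, beside 45.5% of all genes. Cdkn1a was 3.07-fold higher in LysMcre-labelled G-CSF libraries (log2 1.62, SE 0.19, limma adjusted p = 6.97e-06), and E2f2 was 1.59-fold lower in them (log2 -0.66, SE 0.07, limma adjusted p = 2.32e-06), both in all 22 alternatives. Cdc45 was lower (log2 -0.32, limma adjusted p = 0.0126), and lost its call without floxed G-CSF replicate 1 (log2 -0.23, limma adjusted p = 0.0671).

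Smaller differences with G-CSF were seen for Tk1 (log2 -0.26, limma adjusted p = 0.043) and Cdk2 (log2 -0.24, limma adjusted p = 0.0411), both lower in the LysMcre-labelled libraries. Each lost its call when any 1 of 6 libraries was left out: Tk1 without replicate 1 of either untreated group, floxed G-CSF replicate 2 or 3 or LysMcre-labelled G-CSF replicate 2 or 3 (log2 -0.29 to -0.20), and Cdk2 without floxed untreated replicate 1, floxed G-CSF replicate 1 or 3 or any LysMcre-labelled G-CSF replicate (log2 -0.25 to -0.18). Tk1 was also not called by edgeR (adjusted p = 0.0764) or DESeq2 (adjusted p = 0.0749), or when only the groups compared were fitted (limma adjusted p = 0.0749). Cdk2 was not called by edgeR (adjusted p = 0.0531). The comparison of genotypes with G-CSF called 0 of 15 mitotic genes (median -0.09) and 0 of 8 fork genes (median 0.08) in limma; 0 mitotic and 1 fork gene had an unadjusted p under 0.05. Pcna, the fork gene nearest to the threshold, had a log2 difference of 0.21 (limma adjusted p = 0.0544) and passed in 4 alternatives. Counts of mitotic genes called were 2 under equal totals, Ccna2 and Ccnb2, both lower, and 0 by edgeR and by DESeq2. Ccna2 was also called lower without LysMcre-labelled G-CSF replicate 1 (log2 -0.25, limma adjusted p = 0.0263).

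Untreated, 0 of the 45 genes passed between LysMcre-labelled and floxed libraries in limma, beside 0.115% of all genes (0.0647% higher and 0.0503% lower); 1 of the 45 had an unadjusted p under 0.05, and edgeR and DESeq2 also called 0 of the 45. That gene was Mcm4, named after its values were seen, at 441, 453 and 487 normalized counts in LysMcre-labelled untreated libraries against 548, 493 and 546 in floxed untreated libraries (log2 -0.20, limma adjusted p = 1.0). It was the 1 gene of the 45 whose libraries did not overlap, beside 9.34% of all genes. The 45 differences ranged from -0.20 to 0.21 with a median of -0.06, beside a median of -0.01 for all genes. That median rested on single libraries: it was 0.0025 without floxed untreated replicate 1, above the -0.01 of all genes, -0.02 without LysMcre-labelled untreated replicate 2 and -0.09 without floxed untreated replicate 3.

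The response to G-CSF differed between the genotypes for 2 of the 45 genes, beside 22.4% of all genes (10.9% higher and 11.5% lower in LysMcre-labelled cells). The response of Cdkn1a was larger in LysMcre-labelled than in floxed cells by 1.44 on the log2 scale (SE 0.26, limma adjusted p = 0.000994). For E2f2 the response was lower in LysMcre-labelled than in floxed cells, with a difference of -0.63 (SE 0.10, limma adjusted p = 0.000262). Both passed in all 21 alternatives. Equal totals moved the median of all genes to -0.18 and the share of called genes that was higher to 23.0%, against 48.6%, and called 1 of the 45 higher and 2 lower. Mcm2, Mcm4 and Cdc45 had differences of 0.31, 0.24 and -0.33 that did not pass; without LysMcre-labelled untreated replicate 3 both Mcm2 and Mcm4 passed, which made 4 genes (limma adjusted p = 0.0478 and 0.0456), Mcm4 passed without floxed untreated replicate 2, and Cdc45 without floxed G-CSF replicate 3 or LysMcre-labelled G-CSF replicate 1 and under equal totals.

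Levels were compared between genes as normalized counts per kilobase (kb) of exon. E2f2 was the highest of the 45 in all 4 groups, at 846 in LysMcre-labelled G-CSF, 1348 in floxed G-CSF, 1159 in LysMcre-labelled untreated and 1189 in floxed untreated libraries. The next 3 in every group were Mki67, Ccnb2 and Cdc20, at 544, 495 and 456 in LysMcre-labelled G-CSF and 439, 459.5 and 404 in floxed untreated libraries, where the gaps between neighbours were smaller than the SD of Mki67. The lowest 4 in every group were Gins2, Pola1, Tyms and Pole, at 9.91, 10.1, 12.2 and 14.4 in floxed untreated libraries. Cdkn1a stood at place 8 in LysMcre-labelled G-CSF libraries, at 310.1 per kb, against 102 in floxed G-CSF, 53.7 in LysMcre-labelled untreated and 46.4 in floxed untreated libraries.

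Other genes of the same pathways were read from lists chosen by function. Of 39 further replication genes, 19 rose and 9 fell with G-CSF in LysMcre-labelled cells, and 15 rose and 4 fell in floxed cells, with medians of 0.32 in LysMcre-labelled and 0.26 in floxed cells; under equal totals 7 rose and 10 fell in LysMcre-labelled cells, with a median of 0.06, and 9 rose and 6 fell in floxed cells, with a median of 0.17. With the deposited scaling 71.8% of the list passed in LysMcre-labelled cells, beside 62.6% of all genes, and 48.7% in floxed cells, a share near the 48.8% of all genes. Gins1 (log2 1.43 LysMcre-labelled, 1.24 floxed), another GINS subunit, and Pold2 (1.19 LysMcre-labelled, 0.74 floxed), a subunit of polymerase delta, rose. Pole2 rose in floxed cells (0.77), a call lost without floxed untreated replicate 3 or floxed G-CSF replicate 2 or 3 (log2 0.41 to 0.75), and had 0.54 in LysMcre-labelled cells. Pola2 (-0.67 LysMcre-labelled, -0.77 floxed), a subunit of the priming polymerase, and the origin recognition gene Orc5 (-0.48 LysMcre-labelled, -0.53 floxed) fell, and Gins4 fell in LysMcre-labelled cells (-0.86) and had -0.19 in floxed cells, which did not pass.

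Of 38 further mitotic genes, 18 rose and 5 fell in LysMcre-labelled cells, and 21 rose and 2 fell in floxed cells, with medians of 0.25 in LysMcre-labelled and 0.32 in floxed cells; under equal totals the balance turned in LysMcre-labelled cells, where 4 rose and 8 fell with a median of -0.01, and 12 rose and 5 fell in floxed cells. The share that passed with the deposited scaling was 60.5% in each genotype, beside 62.6% of all genes in LysMcre-labelled and 48.8% in floxed cells. Cdc25b, the phosphatase that activates Cdk1, rose most, to 3012 ± 281 normalized counts with G-CSF in LysMcre-labelled cells against 678 ± 113 untreated, and to 2841 ± 235 with G-CSF in floxed cells against 701 ± 84.0 untreated (SD, n = 3 each). Mybl2, a transcription factor of mitotic genes, rose by 0.96 in LysMcre-labelled and 0.74 in floxed cells on the log2 scale. Kif23, a motor of cytokinesis (log2 -1.26 LysMcre-labelled, -0.96 floxed), and the centromere histone Cenpa (-0.41 LysMcre-labelled, -0.24 floxed) were lower with G-CSF, and Pttg1, which encodes securin, was lower in LysMcre-labelled cells (-0.44) and had 0.13 in floxed cells, which did not pass.

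Among 26 measured genes of the cyclin D, retinoblastoma and CDK inhibitor group, 8 rose and 9 fell in LysMcre-labelled cells and 5 rose and 8 fell in floxed cells; under equal totals 5 rose and 12 fell in LysMcre-labelled and 4 rose and 9 fell in floxed cells. The 17 of 26 genes that passed in LysMcre-labelled cells and the 13 of 26 in floxed cells were near the shares of all genes, 62.6% in LysMcre-labelled and 48.8% in floxed cells. Tfdp1, the dimer partner of E2F factors, stood at 1349.6 ± 37.3 normalized counts with G-CSF and 6375 ± 241 untreated in LysMcre-labelled cells, and at 2973 ± 264 with G-CSF and 6958 ± 139.7 untreated in floxed cells (SD, n = 3 each). E2f3 was also lower with G-CSF (log2 -1.18 LysMcre-labelled, -1.14 floxed). In LysMcre-labelled cells Cdkn2d, a CDK4 and CDK6 inhibitor, rose by 1.78 and cyclin D2 (Ccnd2) by 2.16, and in floxed cells by 1.58 and 1.03. Cdkn1c, Cdkn2a and Cdkn2b were not analysed here.

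Of 19 measured p53 target genes other than Cdkn1a, 10 rose and 6 fell in LysMcre-labelled cells, and 6 rose and 7 fell in floxed cells; under equal totals 8 rose and 8 fell in LysMcre-labelled and 6 rose and 9 fell in floxed cells. With the deposited scaling 84.2% passed in LysMcre-labelled cells, beside 62.6% of all genes, and 68.4% in floxed cells, beside 48.8% of all genes. Plk2 stood at 333 ± 17.5 normalized counts with G-CSF and 57.7 ± 15.1 untreated in LysMcre-labelled cells, and at 193 ± 23.8 with G-CSF and 54.1 ± 1.64 untreated in floxed cells (SD, n = 3 each). The death receptor gene Tnfrsf10b was at 607 ± 52.3 with G-CSF against 13.5 ± 8.58 untreated in LysMcre-labelled cells and 224 ± 5.37 with G-CSF against 7.69 ± 4.12 untreated in floxed cells (SD, n = 3 each). Bbc3, which encodes the death-promoting PUMA, was lower with G-CSF (log2 -1.95 LysMcre-labelled, -1.35 floxed), as was Trp53inp1 (-1.27 LysMcre-labelled, -0.60 floxed). Between the genotypes with G-CSF, 9 of the 19 were higher and 4 lower in LysMcre-labelled libraries, or 7 and 7 under equal totals. In that comparison 68.4% passed with the deposited scaling, beside 36.0% of all genes (17.1% higher and 18.9% lower). Phlda3 and Eda2r were not analysed here.

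Markers of other cells were read in the same libraries. Among 6 stem and progenitor markers Kit was higher (log2 2.95 LysMcre-labelled, 1.90 floxed) and Myb lower (-0.98 LysMcre-labelled, -0.78 floxed) with G-CSF in LysMcre-labelled and floxed cells. The other 4 did not pass in either, and the median of the 6 was -0.03 in LysMcre-labelled and 0.04 in floxed cells. The share of the 6 that passed was 33.3% in each, beside 62.6% of all genes in LysMcre-labelled and 48.8% in floxed cells. The summed level of the 6 was 7826 to 8269 normalized counts in LysMcre-labelled G-CSF, 4498 to 5205 in floxed G-CSF, 3341 to 3626 in LysMcre-labelled untreated and 3190 to 3657 in floxed untreated libraries. Of 7 measured erythroid markers Tfrc alone passed (log2 0.84 LysMcre-labelled, 0.77 floxed). Of the 9 B cell markers, Cd79a (log2 -0.37) and Ebf1 (-0.51) were lower in LysMcre-labelled cells. Both calls were lost without LysMcre-labelled untreated replicate 2 or 3 or LysMcre-labelled G-CSF replicate 1, and that of Cd79a also without LysMcre-labelled G-CSF replicate 3 (log2 -0.40 to -0.27 for Cd79a and -0.48 to -0.35 for Ebf1). Of 7 measured T and NK cell markers Cd3d passed (log2 -2.98 LysMcre-labelled, -2.23 floxed), and Klrb1c was not analysed here. The shares that passed were 14.3% for erythroid and for T and NK cell markers in each genotype. For B cell markers they were 22.2% in LysMcre-labelled cells and 0 in floxed cells. All were below the shares of all genes. The summed level of erythroid markers was 1199 to 1255 normalized counts in LysMcre-labelled G-CSF, 1238 to 1363 in floxed G-CSF, 800.3 to 2115 in LysMcre-labelled untreated and 865 to 1532 in floxed untreated libraries. For B cell markers it was 10479 to 17164 in LysMcre-labelled G-CSF, 7239 to 10828 in floxed G-CSF, 12386 to 18083 in LysMcre-labelled untreated and 9068 to 13015 in floxed untreated libraries. For T and NK cell markers it was 413 to 466 in LysMcre-labelled G-CSF, 424 to 483 in floxed G-CSF, 599 to 744 in LysMcre-labelled untreated and 576 to 659.7 in floxed untreated libraries.

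Of 9 monocyte markers 2 rose and 3 fell in LysMcre-labelled cells and 4 rose and 2 fell in floxed cells, or 1 and 4, and 1 and 2, under equal totals. With the deposited scaling 55.6% passed in LysMcre-labelled and 66.7% in floxed cells, beside 62.6% and 48.8% of all genes. Ly6c2 (log2 -2.16 LysMcre-labelled, -1.18 floxed) and Cx3cr1 (-1.07 LysMcre-labelled, -0.74 floxed) were lower with G-CSF in both genotypes, and Klf4 in LysMcre-labelled cells (-0.68). Ccr2 (log2 0.46 LysMcre-labelled, 0.75 floxed) and F13a1 (0.86 LysMcre-labelled, 0.68 floxed) were higher in both, and Csf1r (0.32) and Ms4a6c (0.65) in floxed cells. The summed level was 20488 to 24081 normalized counts in LysMcre-labelled G-CSF, 19533 to 26481 in floxed G-CSF, 26346 to 29936 in LysMcre-labelled untreated and 24846 to 28322 in floxed untreated libraries. Of 10 neutrophil markers 4 rose and 5 fell in LysMcre-labelled cells and 4 rose and 6 fell in floxed cells, or 2 and 6, and 3 and 5, under quantile normalization. With the deposited scaling 90% passed in LysMcre-labelled and all 10 in floxed cells, beside 62.6% and 48.8% of all genes. Those higher in both genotypes were S100a8, S100a9, Csf3r and Cxcr2 (log2 0.74 to 2.17 in LysMcre-labelled and 0.48 to 1.74 in floxed cells), and those lower in both were Mmp9, Retnlg, Camp, Ltf and Ngp (log2 -3.08 to -0.69 in LysMcre-labelled and -1.74 to -0.44 in floxed cells). Ly6g, which was used in the sort, was lower in floxed cells (log2 -0.48). Between the genotypes with G-CSF, where 36.0% of all genes passed, 2 neutrophil markers were higher and 5 lower in LysMcre-labelled libraries. Under quantile normalization these were 0 and 5. Early granulocyte precursor markers were lower in 3 cases. Kit, Cd34, Ighm and Fn1 were also higher in LysMcre-labelled libraries, and Myb, Cd3d, Nkg7, Ly6c2 and Klf4 lower. No measured marker was at 0 in a whole group, and the part of these cells in the 45 genes' values was not tested.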

How the data were processed

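RNA from sorted mouse bone marrow neutrophils was measured in 12 libraries, 3 in each of 4 groups. The deposited signal values are normalized counts made by the authors: each value was a whole number of reads (100% within 0.01 of a read) divided by 1 factor per library that equalled a median-of-ratios size factor, so the reads were recovered from the file. Per the submitters' processing notes reads were placed on mm10; aligner, counter, annotation and use of strand were not given in the sources used here. Replicate numbers and groups followed the sample titles, except that the 3 LysMcre-labelled G-CSF libraries, whose titles also read untreated, were placed by their description, and LysMcre-labelled untreated replicate 2 has a column numbered 3. A further 2 columns held no sample and 17 row names had turned into dates; neither was used for the 45 genes. Library depths of 19495754 to 26472118 reads put 3 reads at 2.57 to 3.54 normalized counts. No 2 libraries agreed within sampling noise (chi-square per gene of 3.55 or more in every pair of replicates).

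Values were tested with limma 3.58.1 in R 4.3.3 on log2(normalized count + 1) with a trended prior, in 1 fit of all 4 groups with 8 residual degrees of freedom, keeping genes with a mean of at least 10 (13915 tested, 20 left out). P-values were adjusted with Benjamini-Hochberg over all genes tested. Fold changes are on that scale, which understates the change of low genes. The design had been written for normalized counts that could not be turned back into reads; the recovered reads were used for the alternatives by edgeR 4.0.16 (quasi-likelihood, TMM) and DESeq2 1.42.0. The fits were tested on simulated data. The other alternatives were pseudocounts of 0.5 and 10, no filter, a mean of at least 50, quantile normalization, equal totals, only the groups compared, a replicate block and leaving out each of 12 libraries. The replicate numbers were not taken as pairs, since same-numbered libraries did not vary together in every pair (correlation of deviations 0.06 to 0.32 in floxed and -0.03 to 0.21 in LysMcre-labelled libraries). The 45 genes, the lists and the motif words were chosen with earlier results of these data known. Named with values were the 6 called members with the largest difference in each comparison and members called for a genotype difference in response. Mcm2 to Mcm7, Cdc6, Cdt1, Gmnn, Pcna, Mki67, Top2a, Cdk1, Ccnb1, Cdkn1a, E2f1 and E2f2 were always given. So were the 2 largest rises and falls of each other pathway list. Cell type markers with a mean of at least 50 were given with values where called between G-CSF and untreated. Further members were named by role.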

Additional observations from a re-analysis of the deposited data

Results flagged for a closer look

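The response of Cdkn1a to G-CSF differed between the genotypes: LysMcre-labelled minus floxed was 1.44 on the log2 scale, from 2.56 in LysMcre-labelled and 1.13 in floxed libraries (limma adjusted p = 0.000994).

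The response of E2f2 to G-CSF also differed: LysMcre-labelled minus floxed was -0.63 on the log2 scale, from -0.45 in LysMcre-labelled and 0.18 in floxed libraries (limma adjusted p = 0.000262).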

How the results depend on the processing

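Of the 36 calls in LysMcre-labelled cells 25 held in all 22 alternatives, of the 38 in floxed cells 28, of the 5 between genotypes with G-CSF 2, and both differences in response held in all 21. Leaving out 1 library at a time gave 31 to 38 called genes in LysMcre-labelled cells, 33 to 38 in floxed cells, 3 to 5 between genotypes with G-CSF, 0 in each case between untreated genotypes by limma, and 2 to 4 for the difference in response. The 3 came without floxed untreated replicate 1, floxed G-CSF replicate 1 or LysMcre-labelled G-CSF replicate 2, and the 4 without LysMcre-labelled untreated replicate 3. Birc5 and Kif11 turned in LysMcre-labelled cells under equal totals, to -0.0334 and -0.0075, where the all-gene median moved to -0.26. With a replicate block the counts were 38 in LysMcre-labelled and 37 in floxed cells, 5 between genotypes with G-CSF, 0 untreated and 2 for the response. Cdc20 and Cenpe then passed in LysMcre-labelled cells. The replicate numbers were not taken as pairs in the main fit, and a pairing was neither shown nor excluded. The lowest count behind any of the 45 genes was 33 reads in a library.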
